A study of Mus musculus with 27 samples.

Results

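The 10 genes described here are endothelial genes of the liver: 3 secreted signals that endothelial cells send to hepatocytes (Wnt2, Wnt9b and Rspo3), the receptor gene Kit, 5 markers of liver endothelium (Pecam1, Cdh5, Kdr, Clec4g and Oit3) and the ligand gene Efnb2. They were chosen by symbol from a table of 21823 genes, all 10 were found in it, and all 10 passed the filter on low values together with 12942 other genes. Wnt9b passed that filter through zone 3 alone, with an FPKM of at least 1 in 4 libraries. The levels come from laser microdissection of liver sections of wild-type (WT) female C57BL/6 mice (C57BL/6N in the methods), followed by RNA sequencing. Non-pregnant mice (NP) were set beside mice on day 8 (dpc8) and on day 16 (dpc16) after mating. All groups share the wild-type genotype, and no treatment is named for any of them. The general methods give an age of 8 to 14 weeks, and a wider range is also stated for wild-type mice. Zone 1, the area around the portal vein, zone 3, the area around the central vein, and zone 2 between them were collected at each stage, with 3 libraries for each of the 9 groups.

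Liver sinusoids are lined by a fenestrated endothelium that lies next to the hepatocytes and differs along the path of the blood from portal to central vein. Endothelial cells of the central vein and of the sinusoids near it secrete Wnt ligands and R-spondin 3, which act on neighbouring hepatocytes through beta-catenin and maintain the gene programme of the central zone. R-spondins bind Lgr receptors and remove the ubiquitin ligases Rnf43 and Znrf3, which otherwise clear Wnt receptors from the cell surface.

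Levels are in FPKM, which divides the fragments of a gene by its length and by library size, so genes can be compared with each other per length. Low values fell on steps of whole reads, from which 7.53 to 33.3 M reads per library were estimated. All 14 pan-endothelial and all 12 sinusoidal marker genes fixed as lists were tested, and in no zone or stage was any of them at 0 in every library. In 6 libraries the summed FPKM of 4 Y-linked genes was 7.92 to 23.2, against 0 to 2.97 in the other 21, although all mice are labelled female. The mean log2(FPKM + 1) of 14 connective tissue and smooth muscle genes was 4.79 to 6.38 in the same 6 libraries against 1.07 to 4.04 in the others, and that of the pan-endothelial list was 2.03 to 2.83 against 2.50 to 3.32. These are replicate 1 of NP zone 1, replicate 2 of NP zone 3, replicate 1 of dpc8 zone 1, replicate 2 of dpc8 zone 2 and replicate 3 of dpc16 zones 2 and 3. Calls of the 10 genes that change when these 6 libraries are left out are given beside the results.

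Wnt2, Rspo3 and Kit were lower in zone 1 than in zone 3 when the stages were averaged, Wnt9b was at or near 0 in zone 1, and the other 6 genes did not pass the test. Genes were compared with limma on log2(FPKM + 1), and a gene is called where the p-value adjusted over all 12952 genes tested by the Benjamini-Hochberg method was under 0.05. Wnt9b entered the test only because it is high in zone 3, so it is left out of the counts of called genes between the zones and its values are a description. Of the other 9 genes 3 were called, Wnt2, Rspo3 and Kit, where 5.59% of all genes tested were called, 2.89% lower and 2.7% higher in zone 1. For these 3 genes, all 3 zone 3 values lay above all 3 zone 1 values at each of the 3 stages, which 1.15% of all genes tested did.

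**Figure D1:**
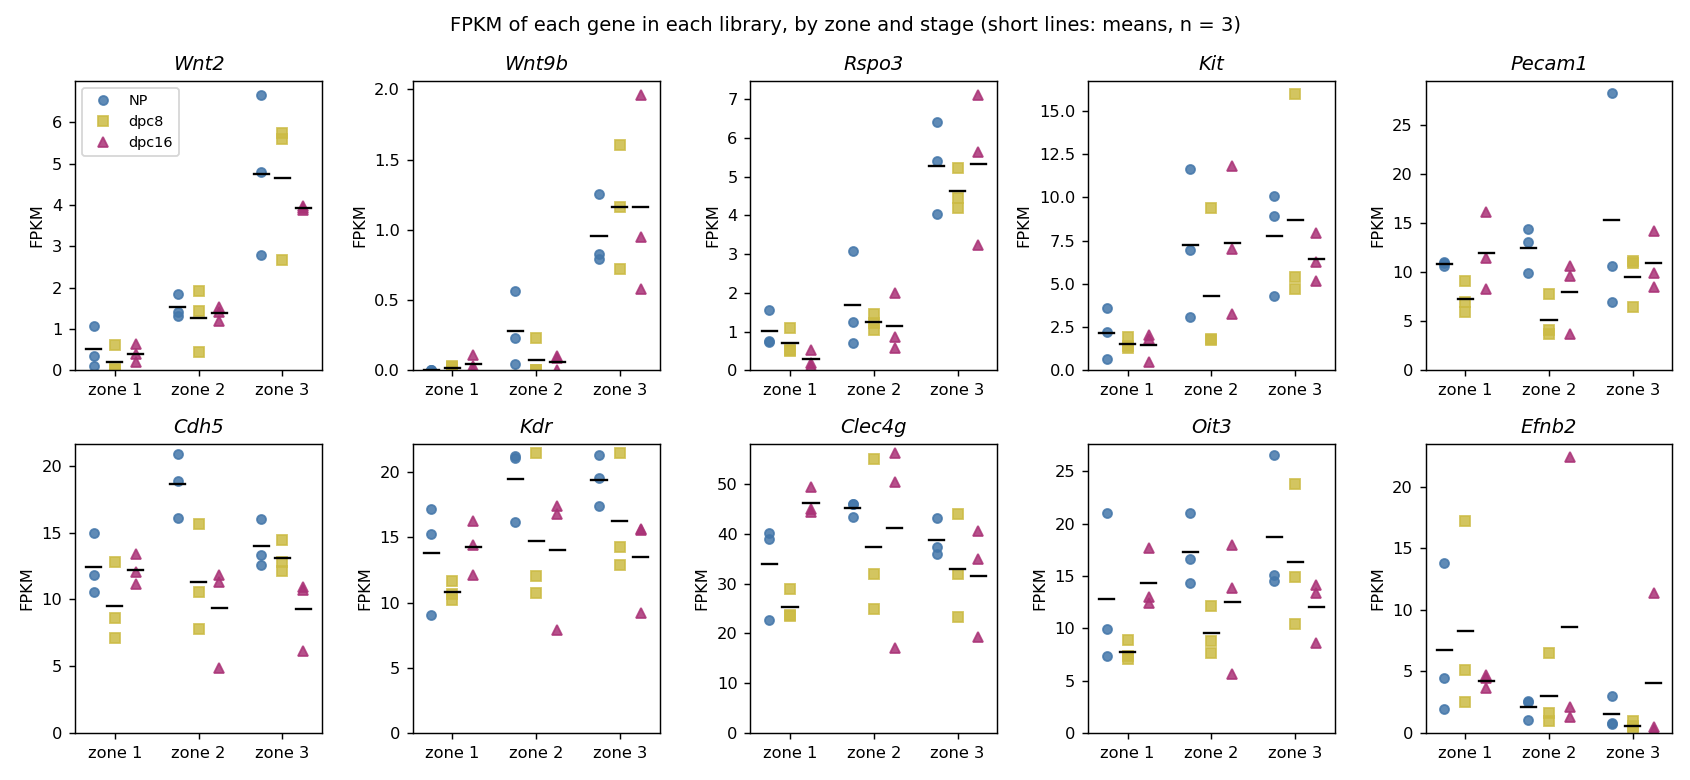
FPKM (vertical axes, linear from 0) of the 10 genes in each of the 27 libraries by zone (horizontal axes), with symbols for NP, dpc8 and dpc16 and short lines at the means of 3 libraries. Wnt2, Wnt9b, Rspo3 and Kit lie higher in zone 3 than in zone 1 at every stage, and Efnb2 has single high values of up to 22.4 in zone 2 and 17.2 in zone 1.

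Wnt2 (chr6:17988940-18030585, minus strand, GRCm38) encodes a ligand of the canonical Wnt pathway. Its FPKM in NP mice was 0.11, 1.07 and 0.34 in zone 1, 1.86, 1.398 and 1.305 in zone 2, and 2.79, 6.67 and 4.79 in zone 3. At dpc8 it was 0.60, 0 and 0.021 in zone 1, 1.91, 1.42 and 0.43 in zone 2, and 5.73, 5.60 and 2.66 in zone 3. At dpc16 it was 0.19, 0.39 and 0.62 in zone 1, 1.195, 1.54 and 1.42 in zone 2, and 3.97, 3.93 and 3.89 in zone 3. The ranges of the 3 zones did not overlap in NP and dpc16 mice, and at dpc8 the lowest zone 2 value lay below the highest zone 1 value. The mean over 9 libraries was 0.37 ± 0.35 (SD) in zone 1, 1.38 ± 0.43 in zone 2 and 4.45 ± 1.36 in zone 3, a ratio of 12.0 between the means of zones 3 and 1. On the log2(FPKM + 1) scale, which understates the change of such low values, zone 1 minus zone 3 was -1.99 ± 0.19 (SE; limma adjusted p = 9.71e-08).

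Wnt9b (chr11:103727364-103749821, minus strand) encodes another ligand of the pathway and was the lowest of the 10 genes. In zone 1 it was listed at 0 in all 3 NP libraries, at 0.030, 0.021 and 0 at dpc8, and at 0.11, 0.031 and 0 at dpc16. In zone 3 it reached 0.83, 0.79 and 1.25 in NP mice, 1.60, 0.72 and 1.16 at dpc8, and 0.95, 1.96 and 0.58 at dpc16. Zone 2 lay close to zone 1, with 0 to 0.57 FPKM and a median of 0.084. From the depth estimates, these values rest on 0 to 5 reads per library in zone 1, 0 to 31 in zone 2 and 41 to 148 in zone 3. Zone 1 and zone 3 did not overlap at any stage, and the averaged difference was -1.01 ± 0.14 (limma adjusted p = 2.39e-05, and 1.69e-06 in a fit of all genes with no filter), with no fold given because of the zone 1 values at 0.

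Rspo3 (chr10:29452416-29535867, minus strand) encodes R-spondin 3, which amplifies Wnt signals. Its zone 1 values were 0.76, 1.56 and 0.73 in NP mice, 1.09, 0.50 and 0.53 at dpc8, and 0.53, 0.20 and 0.12 at dpc16. In zone 2 they were 1.26, 3.09 and 0.71 in NP mice, 1.23, 1.04 and 1.45 at dpc8, and 2.00, 0.87 and 0.56 at dpc16. In zone 3 they were 4.04, 5.40 and 6.42 in NP mice, 4.46, 4.18 and 5.23 at dpc8, and 5.63, 7.12 and 3.24 at dpc16. Every zone 3 library lay above every library of zones 1 and 2, while zones 1 and 2 overlapped in NP and dpc8 mice. Over 9 libraries a zone, the mean (± SD) was 0.67 ± 0.44 around the portal vein and 5.08 ± 1.23 around the central vein, a ratio of 7.60, and the log2 difference was -1.88 ± 0.19 (limma adjusted p = 2.13e-07).

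Kit (chr5:75574916-75656722, plus strand) encodes the receptor for stem cell factor. It was 2.21, 0.66 and 3.61 in NP zone 1, 1.91, 1.40 and 1.28 in dpc8 zone 1, and 1.81, 2.05 and 0.49 in dpc16 zone 1. In zone 3 it was 8.90, 4.27 and 10.1 in NP mice, 15.97, 4.69 and 5.41 at dpc8, and 6.27, 7.92 and 5.17 at dpc16. Zone 2 values spread widely, from 1.74 to 11.8, with a median of 6.96 beside 1.81 in zone 1 and 6.27 in zone 3. The mean in zone 3 was 4.45 times that in zone 1, and the averaged log2 difference was -1.65 ± 0.32 (limma adjusted p = 0.00168). The zone 2 median of Kit lay nearer to that of zone 3, and those of Wnt2, Wnt9b and Rspo3 lay nearer to zone 1.

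Promoter sequences are shown for Wnt2, Wnt9b and Kit, the genes with lower averaged levels in zone 1 that had an entry in the RefSeq promoter table (GRCm38.p6), which held 6 of the 10. Each runs 5′ to 3′ on the strand of the gene, from 250 bases before the annotated start to 50 bases after it, and capitals mark the GC box letters GGGCGG on either strand. They lie at chr6:18030396-18030695 (minus strand), chr11:103749772-103750071 (minus strand) and chr5:75574737-75575036 (plus strand).
Wnt2: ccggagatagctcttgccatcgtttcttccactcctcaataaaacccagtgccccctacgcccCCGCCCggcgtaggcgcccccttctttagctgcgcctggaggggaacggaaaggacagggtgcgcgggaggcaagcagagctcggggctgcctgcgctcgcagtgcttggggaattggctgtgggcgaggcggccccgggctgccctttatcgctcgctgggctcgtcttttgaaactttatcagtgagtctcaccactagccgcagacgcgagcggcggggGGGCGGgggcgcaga
Wnt9b: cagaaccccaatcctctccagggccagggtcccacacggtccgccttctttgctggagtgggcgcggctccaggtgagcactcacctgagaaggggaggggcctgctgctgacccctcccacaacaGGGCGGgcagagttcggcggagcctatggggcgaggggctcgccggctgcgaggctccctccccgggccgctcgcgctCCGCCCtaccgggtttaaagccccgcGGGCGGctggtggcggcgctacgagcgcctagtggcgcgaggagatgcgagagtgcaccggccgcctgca
Kit: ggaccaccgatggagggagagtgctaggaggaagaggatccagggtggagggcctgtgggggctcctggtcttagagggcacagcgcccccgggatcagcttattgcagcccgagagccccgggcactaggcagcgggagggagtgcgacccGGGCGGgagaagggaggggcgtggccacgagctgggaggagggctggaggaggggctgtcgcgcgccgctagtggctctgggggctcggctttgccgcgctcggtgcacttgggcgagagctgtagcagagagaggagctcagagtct

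The GC box occurred 2 times in the Wnt2 window, 3 times in that of Wnt9b and 1 time in that of Kit, and 35.7% of 32851 promoters of the same length held it on either strand. The GATA motif AGATAA (held by 3672 of the 32851 promoters) and the TCF/LEF core CTTTGA (held by 5257 of them) did not occur in these 3 windows on either strand. None of the 3 motifs overlaps another in these windows. The GC content was 65.7% for Wnt2, 71.7% for Wnt9b and 69.0% for Kit, against a median of 52.7% over all promoters.

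Within single stages, Wnt2 and Rspo3, 2 of the 9 genes counted, were called lower in zone 1 in NP, dpc8 and dpc16 mice, where 0.811%, 0.926% and 0.772% of all genes were. In a fit of only the NP groups compared, these calls were lost (adjusted p = 0.156 for Wnt2 and 0.130 for Rspo3). For Wnt2 the log2 difference was -1.92 ± 0.32 in NP mice, -2.21 ± 0.32 at dpc8 and -1.83 ± 0.32 at dpc16 (limma adjusted p = 0.00109, 2.02e-04 and 0.00158). For Rspo3 it was -1.65 ± 0.32, -1.73 ± 0.32 and -2.27 ± 0.32 (adjusted p = 0.00566, 0.00326 and 1.07e-04). For Wnt9b it was -0.96, -1.07 and -0.997, each ± 0.24 (adjusted p = 0.0427, 0.0176 and 0.0276), and the NP call was lost whichever of its 6 libraries was left out (adjusted p = 0.0878 to 0.230). At dpc8 and at dpc16 the adjusted p of Wnt9b rose above 0.05 in 5 of 6 such fits each. Without the 6 libraries with Y-linked FPKM, Wnt2 (adjusted p = 0.0543) and Wnt9b (0.0691) also missed the threshold in NP mice, while the averaged differences of Wnt2, Rspo3 and Kit were called.

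Kit differed by -1.52, -1.76 and -1.66, each ± 0.55, in NP, dpc8 and dpc16 mice, and was not called in any single stage (limma adjusted p = 0.331, 0.136 and 0.222). At dpc16, where libraries of the same replicate number deviated together, the difference of Kit was called with the replicate number as a block (adjusted p = 0.00390). The change of the zone difference with pregnancy was not called for any of the 10 genes, at dpc16 (0.054% of all genes called) or at dpc8 (0% called). For that change 0 of 10 had an unadjusted p under 0.05, beside 3.16% of all genes at dpc16 and 2.36% at dpc8. For Wnt2 that change was 0.10 at dpc16, with a 95% interval from -0.85 to 1.04, and for Rspo3 it was -0.62, from -1.56 to 0.33, so differences of about this size were not resolved with 3 libraries a group.

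**Figure D2:**
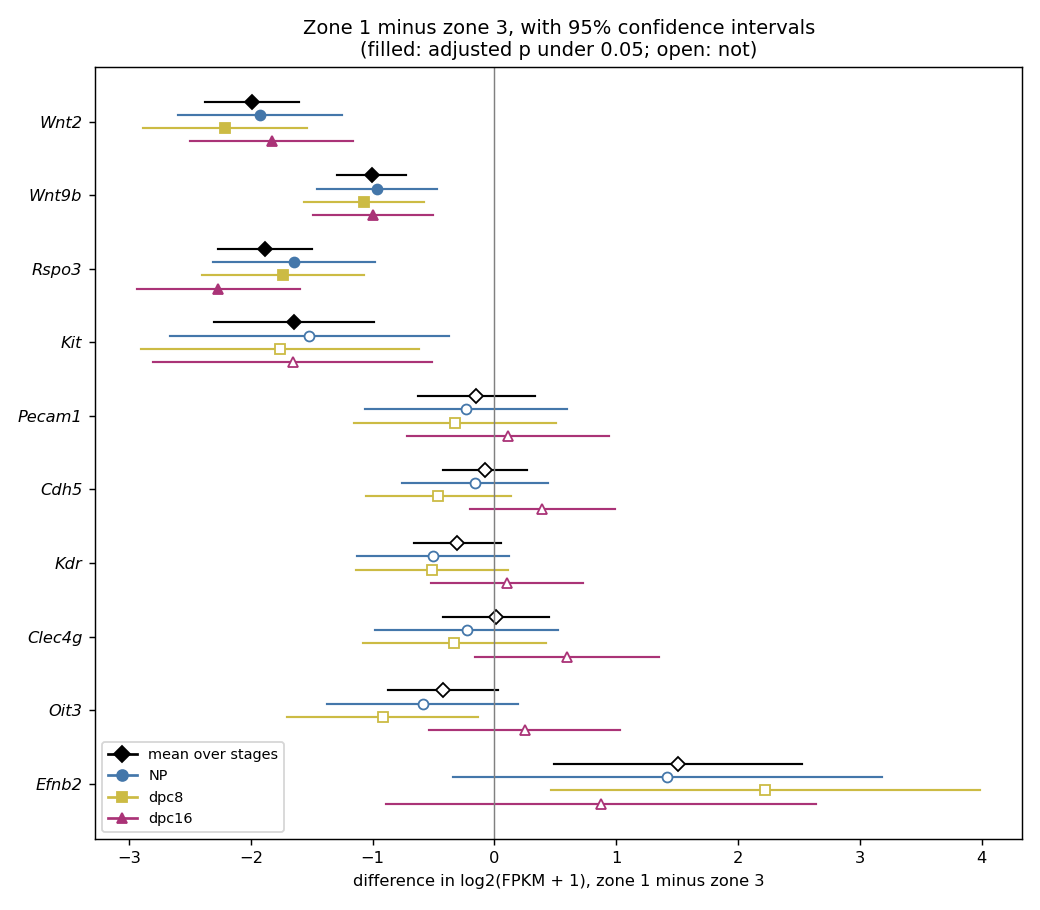
Difference in log2(FPKM + 1), zone 1 minus zone 3 (horizontal axis), of the 10 genes, for the mean over stages and for NP, dpc8 and dpc16, with 95% confidence intervals and filled symbols where the adjusted p was under 0.05. Wnt2, Wnt9b and Rspo3 are filled throughout and Kit for the mean over stages, while the intervals of Pecam1, Cdh5, Kdr and Clec4g include 0 in every row. The symbols of Wnt9b are a description only, since it entered the test through zone 3 alone.

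Zone 2 was compared with both of its neighbours. Between zones 1 and 2, Wnt2 alone was called lower in zone 1 (-0.81 ± 0.19, limma adjusted p = 0.0326), where 0.409% of all genes were, and this call was lost without the 6 libraries (adjusted p = 0.0707). It was kept in 5 of the 18 fits with a single library removed (adjusted p = 0.0155 to 0.0975). Kit differed by -1.28 ± 0.32 (adjusted p = 0.0591) and was called without the 6 libraries (-1.59, adjusted p = 0.0365). Between zones 2 and 3, Wnt2 (-1.18 ± 0.19) and Rspo3 (-1.40 ± 0.19), 2 of the 9 genes counted, were called lower in zone 2, where 1.07% of all genes were, with adjusted p-values of 5.07e-04 and 4.77e-05. Wnt9b, again as a description, differed by -0.86 ± 0.14 (adjusted p = 4.26e-05 with no filter). Kit differed there by -0.37 ± 0.32 (adjusted p = 0.831). In the order of the 9 group means, the zone 3 groups held the first 3 places for Wnt2, Wnt9b and Rspo3, and the values of these 3 groups overlapped with each other. For Kit the order mixed zones 2 and 3, from 8.69 ± 6.32 (SD, n = 3) in dpc8 zone 3 to 4.32 ± 4.41 in dpc8 zone 2, with overlapping values, and the zone 1 groups had the lowest means, of 2.16 ± 1.47 and less.

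The markers of endothelial identity did not pass the test along the lobule. Pecam1 (chr11:106654217-106750628), which encodes the adhesion molecule CD31, ranged from 5.89 to 16.1 FPKM in zone 1, 3.67 to 14.4 in zone 2 and 6.41 to 28.3 in zone 3. Cdh5 (chr8:104101625-104144511), the gene of VE-cadherin, ranged from 7.12 to 14.9 in zone 1 and 6.14 to 16.01 in zone 3. Kdr (chr5:75932827-75978458), which encodes a receptor for vascular endothelial growth factor, ranged from 9.05 to 17.2 and 9.22 to 21.5. Within stages, zones 1 and 3 overlapped for Pecam1 at all 3 stages, for Cdh5 in NP and dpc8 mice and for Kdr at dpc16. All zone 3 values of Kdr lay above those of zone 1 in NP and dpc8 mice, and all zone 1 values of Cdh5 lay above those of zone 3 at dpc16. Of all genes tested, 6.05% (NP) and 10.5% (dpc8) had all zone 3 values higher, and 8.36% had all zone 1 values higher at dpc16. The averaged log2 differences were -0.15 ± 0.23, -0.07 ± 0.17 and -0.30 ± 0.17 (limma adjusted p = 0.854, 0.899 and 0.444).

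Clec4g (chr8:3707064-3720651), a lectin of sinusoidal endothelium, had the highest levels of the 10 genes, 17.2 to 56.2 FPKM over all libraries. Its averaged difference was 0.01, with a 95% interval from -0.42 to 0.45. At dpc16 all of its zone 1 values (44.5 to 49.4) lay above those of zone 3 (19.3 to 40.7), as for 8.36% of all genes. The difference was not called (adjusted p = 0.835). Oit3 (chr10:59422958-59441778), a marker of sinusoidal endothelium, ranged from 7.08 to 21.0 in zone 1 and 8.59 to 26.6 in zone 3, and differed by -0.42 ± 0.22 (adjusted p = 0.380). At dpc8 all of its zone 3 values (10.4 to 23.8) lay above those of zone 1 (7.08 to 8.87), as for 10.5% of all genes. This difference was not called either (-0.92, adjusted p = 0.312). Of the other endothelial lists, 0 of 12 sinusoidal genes and 2 of 14 pan-endothelial genes were called, S1pr1 (-0.82 ± 0.23) and Eng (-0.61 ± 0.17), both lower in zone 1. Of all genes tested, 5.59% were called and 2.89% were called lower in zone 1. The medians of these lists were -0.13 and -0.15 beside 0.04 over all genes tested. With single libraries removed, S1pr1 was called in 6 and Eng in 5 of 18 fits, and S1pr1 was not called without the 6 libraries (adjusted p = 0.145). In bulk tissue, fewer cells of a type and less RNA per cell cannot be told apart.

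Efnb2 (chr8:8617434-8661242, minus strand) encodes ephrin-B2, a ligand on arterial endothelium that binds EphB receptors, and its spread within groups rested on few libraries. It was 13.8, 4.48 and 1.96 in NP zone 1, 17.2, 5.10 and 2.50 in dpc8 zone 1, and 3.63, 4.43 and 4.69 in dpc16 zone 1. In zone 3 it was 0.76, 2.97 and 0.79 in NP mice, 0.53, 0.94 and 0.28 at dpc8, and 0.27, 0.47 and 11.4 at dpc16. The values of 13.8, 17.2, 2.97 and 11.4 come from the libraries with Y-linked FPKM, as does the highest value of all, 22.4 in dpc16 zone 2. With all libraries, zone 1 minus zone 3 was 1.51 ± 0.49 (limma adjusted p = 0.0824), and without the 6 libraries it was 1.56 (adjusted p = 6.14e-05), with 1.96 to 5.10 FPKM in 7 zone 1 libraries against 0.27 to 0.94 in 7 of zone 3. Without them it was also called at dpc8 (1.57, adjusted p = 0.0172) and at dpc16 (1.93, adjusted p = 0.00291), where with all libraries it was not, and in NP mice it was not called (1.184, adjusted p = 0.171). With the connective tissue list as a covariate it was 1.12 (adjusted p = 3.71e-04), and with the pan-endothelial list it was 0.84 (adjusted p = 0.198). Deviations of Efnb2 from its group means went with those of the connective tissue list (r = 0.94 over 27 libraries, given as a description), and the part of this tissue in the result with all libraries was not tested.

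**Figure D3:**
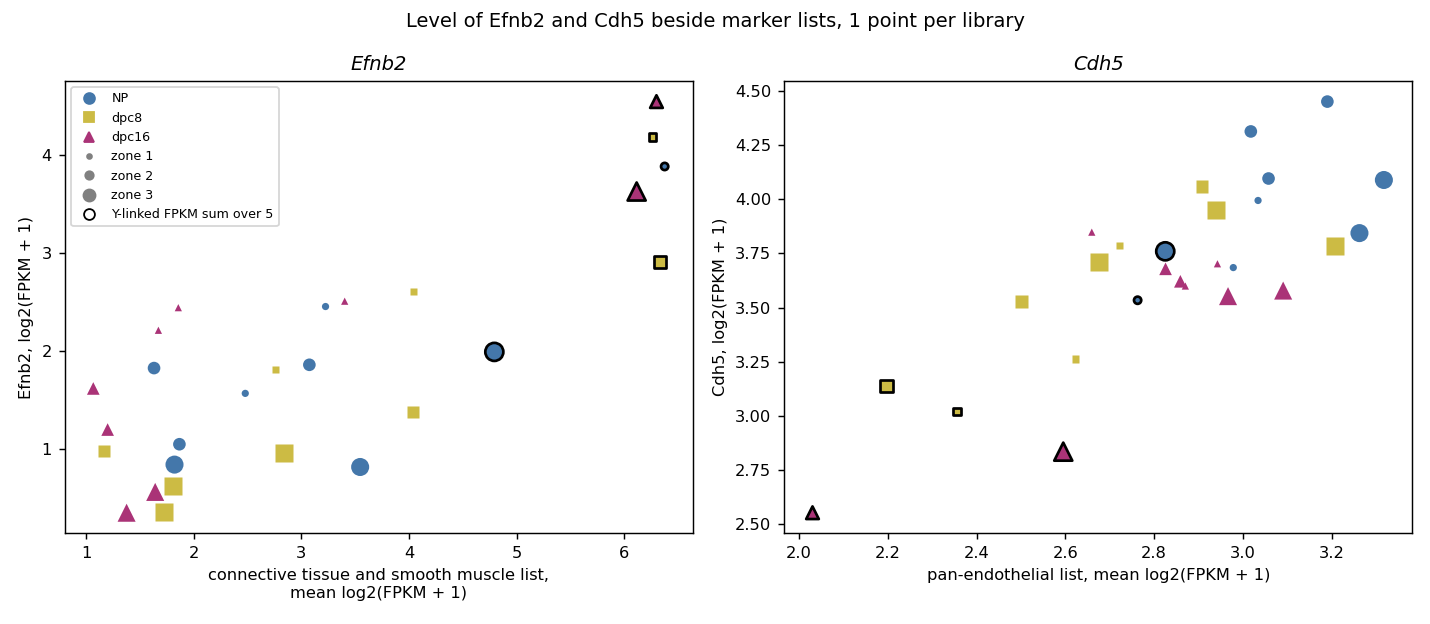
Levels of Efnb2 and Cdh5 as log2(FPKM + 1) (vertical axes) beside the mean log2(FPKM + 1) of the connective tissue and smooth muscle list and of the pan-endothelial list (horizontal axes), 1 point per library, with symbols for stage, symbol size for zone and a black outline for the 6 libraries with Y-linked FPKM. The outlined libraries have the highest values of the connective tissue list, from 4.79 to 6.38, and Efnb2 reaches its highest FPKM, 22.4, among them.

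Genes of the Wnt pathway were taken from lists that were written with earlier results of these data known, so their directions are a description. All 13 hepatocyte genes listed as Wnt targets were lower in zone 1, with a median log2 difference of -4.35 beside 0.04 over all genes tested. They included Axin2, a feedback inhibitor of the pathway (0.87 FPKM in zone 1 and 13.1 in zone 3, -2.88 ± 0.31), Glul, the glutamine synthetase gene (-5.32 ± 0.25), and Slc1a2, a glutamate transporter gene (-6.68 ± 0.28), with limma adjusted p-values of 7.36e-07, 5.45e-13 and 7.39e-14. Among R-spondin receptors and ligases, Lgr5 (-2.29 ± 0.30), Rnf43 (-1.68 ± 0.22) and Znrf3 (-1.01 ± 0.14) were lower in zone 1, 3 of the 4 tested, beside 2.89% of all genes. The fourth, Lgr4, had means (± SD, 9 libraries a zone) of 30.5 ± 16.8 FPKM around the portal and 25.05 ± 5.88 around the central vein and was not called (adjusted p = 0.794).

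Of 11 secreted Wnt inhibitors 6 were tested, and Notum, which encodes an enzyme that inactivates Wnt ligands, was lower in zone 1 (6.73 against 32.9 FPKM, -2.44 ± 0.27). Of 15 Wnt receptor genes 12 were tested, Fzd8 was lower (-0.69 ± 0.15) and Ror1 higher (0.55 ± 0.15) in zone 1, the latter not with a pseudocount of 0.1 (adjusted p = 0.0656) or quantile normalization (0.222). Of 15 tested genes of the beta-catenin core, the transcription factor gene Tcf7 was lower (-1.15 ± 0.20) and Tcf7l1 higher (1.36 ± 0.24). Only 4 of the 17 other Wnt ligands (Wnt4, Wnt5a, Wnt5b and Wnt11) and 1 of 3 other R-spondins (Rspo2) passed the filter, and none of these 5 was called. Wls, which carries Wnt proteins to the cell surface, was 10.9 ± 14.6 FPKM in zone 1 and 9.98 ± 15.6 in zone 3, a spread too wide for a difference to be resolved (95% interval of the log2 difference from -1.44 to 1.53).

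Endothelial genes known for 1 side of the lobule were listed as well. Of 7 listed for the portal side, 4 were higher in zone 1 (2.7% of all genes were) and 0 lower: Msr1, a scavenger receptor gene (1.63 ± 0.27), Ntn4, a netrin gene (1.32 ± 0.25), Dll4, a Notch ligand gene (1.13 ± 0.19), and Ltbp4, a matrix gene (0.91 ± 0.26). The call of Ltbp4 was lost without the 6 libraries (limma adjusted p = 0.155). Of 4 listed for the central side, Cdh13, a cadherin gene, was lower in zone 1 (1.27 against 6.30 FPKM, -1.81 ± 0.27, adjusted p = 7.48e-05). Among 15 partners of the endothelial receptors and ligands, Nrp2, a coreceptor gene, was lower in zone 1 (-1.08 ± 0.19). The ligand genes Kitl and Vegfa and the ephrin receptor gene Ephb4 were not called, with adjusted p-values of 0.837, 0.289 and 0.848.

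**Figure D4:**
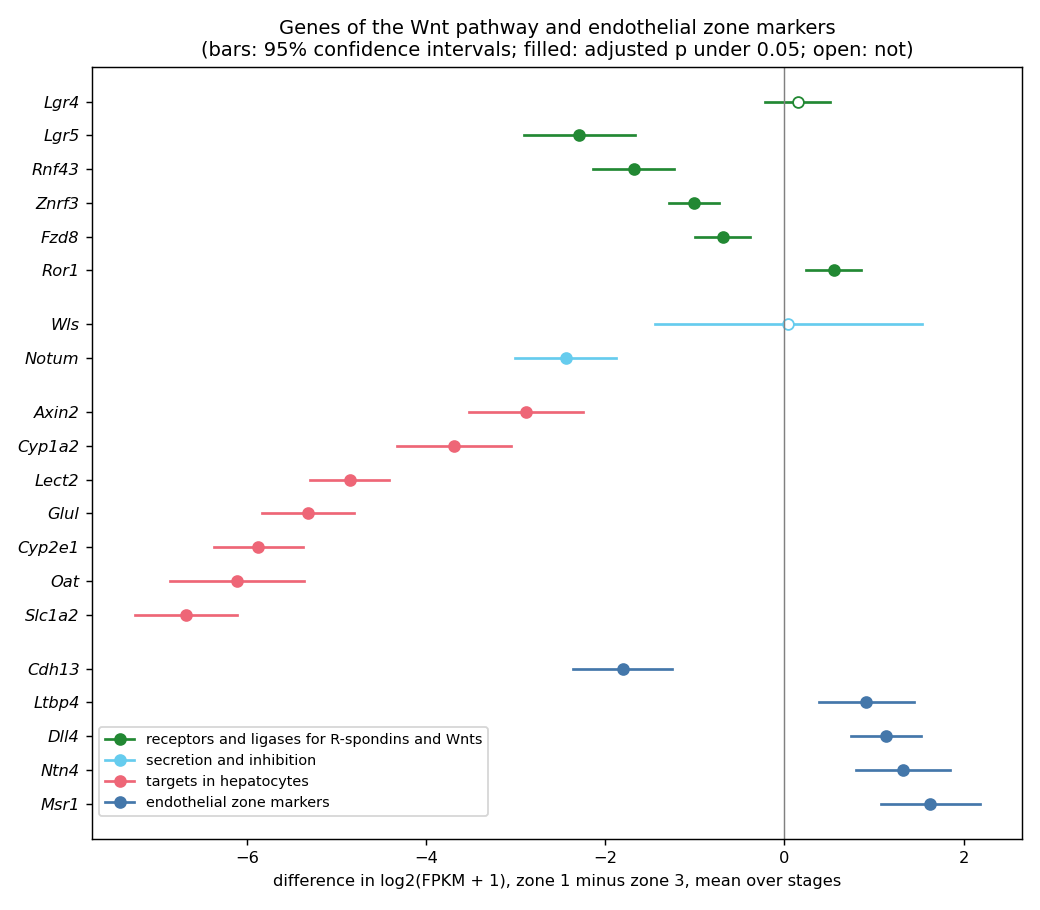
Difference in log2(FPKM + 1), zone 1 minus zone 3, averaged over stages (horizontal axis), for genes of the Wnt pathway and endothelial zone markers, with 95% confidence intervals and filled symbols where the adjusted p was under 0.05. Slc1a2 lies farthest to the left at -6.68 and Msr1 farthest to the right at 1.63, while Lgr4 and Wls are open.

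Genes of other cell types are counted beside the same shares of all genes, 2.7% higher and 2.89% lower in zone 1. Of 6 biliary genes tested, 3 were higher in zone 1, where the bile ducts run, Spp1 (4.28 ± 0.87), Sox9 (1.99 ± 0.22) and Epcam (1.73 ± 0.29). Of 10 hepatic stellate genes, 1 was higher (Ngfr) and 3 lower (Dcn, Reln and Ecm1). Of 14 connective tissue genes, Mgp was higher and Lum lower, of 10 Kupffer cell genes Clec4f was higher, and of 5 vein and artery, 7 blood and 6 hepatocyte genes tested 0 were called. With single libraries removed, Ecm1 was called in 4, Clec4f in 6 and Mgp in 10 of 18 fits. The summed FPKM of the biliary list was 46.9 to 169 in zone 1 and 2.98 to 97.7 in zone 3, that of the connective tissue list 60.3 to 3854 and 50.3 to 3085, and their part in the results was not tested. With the pan-endothelial list as a covariate, the averaged differences of Wnt2, Rspo3 and Kit were called.

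The stages were compared next. At dpc8, 0 of 10 genes were called against NP when the zones were averaged (0.108% of all genes tested were), and 3 of 10 had an unadjusted p under 0.05, as had 6.11% of all genes. All 10 estimates were below 0, from -0.03 to -0.72, and the median of the sinusoidal list was -0.37 over 12 genes. These estimates share libraries and the share of all genes below 0 is not given here, so their direction is a description. The largest was Pecam1, with 5.89, 6.91 and 9.05 FPKM in dpc8 zone 1 against 10.96, 10.6 and 11.04 in NP zone 1, and with 7.78, 3.68 and 4.06 against 13.1, 9.92 and 14.4 in zone 2. All NP values lay above in both zones, as for 2.92% of all genes in zone 1 and 5.76% in zone 2. In zone 3 Pecam1 was 10.96, 11.1 and 6.41 against 28.3, 6.94 and 10.6, which overlapped. The averaged change was -0.72 ± 0.23 (limma adjusted p = 0.462).

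At dpc16, Cdh5 was the 1 gene of 10 called against NP, where 11.8% of all genes were called and 6.15% were called lower. It was 13.4, 11.1 and 12.0 in dpc16 zone 1 against 10.6, 14.9 and 11.9 in NP zone 1, which overlapped. In zone 2 it was 11.8, 11.3 and 4.87 against 20.9, 16.1 and 18.9, and in zone 3 it was 10.7, 10.9 and 6.14 against 16.01, 12.5 and 13.4, with no overlap in either zone, as for 9.59% of all genes in zone 2 and 8.87% in zone 3. The averaged change was -0.53 ± 0.17 (limma adjusted p = 0.0394). The labels do not tie zones to mice, libraries of dpc16 with the same number deviated together, and averaged p-values over 9 libraries a stage may therefore be too small. With the 3 zones of a number averaged into 1 unit, the adjusted p was 0.191, and without the 6 libraries the change was -0.39 (adjusted p = 0.0507). It was called in 7 of 18 fits with a library removed, and was -0.22 (adjusted p = 0.249) with the pan-endothelial list as a covariate. The call was also lost with quantile normalization (adjusted p = 0.0934) and with only the groups compared (0.0590). The summed FPKM of the 6 hepatocyte genes was 33181 to 98437 in NP libraries (median 56139) and 46733 to 225268 at dpc16 (median 169981), with 2 of the 6 called higher and 1 lower, and its part in this and the other lower endothelial genes was not tested.

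The other 9 genes were not called at dpc16. Wnt2 changed by -0.10, with a 95% interval from -0.49 to 0.28, Wnt9b by -0.03 (-0.31 to 0.26), Rspo3 by -0.32 (-0.70 to 0.07) and Kit by -0.16 (-0.82 to 0.50). In zone 3, all 3 NP values lay above all 3 dpc16 values for Cdh5, Kdr and Oit3, 3 of the 10 genes, beside the 8.87% of all genes. In zone 1 the dpc16 values of Clec4g (44.5 to 49.4) all lay above those of NP mice (22.6 to 40.3), as for 9.42% of all genes, and those of Rspo3 all lay below, as for 8.01%. Kdr was 15.6, 15.7 and 9.22 FPKM in dpc16 zone 3 against 21.3, 19.6 and 17.4 in NP zone 3. Between dpc16 and dpc8, 0 of 10 genes were called (11.1% of all genes called), and 1 was called without the 6 libraries. There 0 of 10 had an unadjusted p under 0.05, beside 23.9% of all genes. Within single zones, 0 of 10 genes were called at dpc8 (0.0309%, 0.00772% and 0.0154% of all genes called in zones 1, 2 and 3) or at dpc16 (1.37%, 2.66% and 1.32%). An unadjusted p under 0.05 was reached by 3 genes in zone 2 at dpc8 and by Cdh5 in zone 2 at dpc16 (-1.001 ± 0.29, adjusted p = 0.0649). Of all genes, 5.06% reached it in zone 2 at dpc8 and 16.6% in zone 2 at dpc16.

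**Figure D5:**
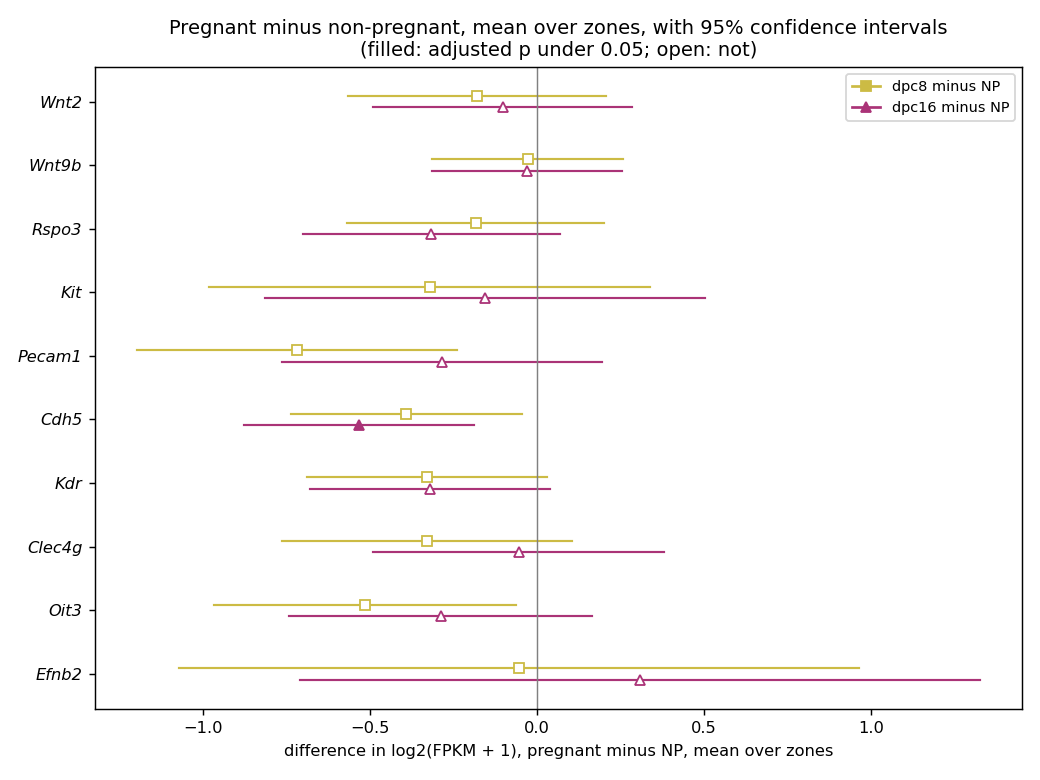
Difference in log2(FPKM + 1) of dpc8 and dpc16 against NP, averaged over zones (horizontal axis), for the 10 genes with 95% confidence intervals and filled symbols where the adjusted p was under 0.05. Cdh5 at dpc16 (-0.53) is the 1 filled symbol, and all dpc8 estimates lie below 0.

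Of the pathway around them, Lgr4 rose at dpc16, from 19.7 ± 5.09 to 38.5 ± 12.7 FPKM (SD, n = 9 libraries a stage; 0.90 ± 0.18, limma adjusted p = 0.00137), and Notum fell (-1.59 ± 0.27, adjusted p = 3.49e-04). Both were called with the zones averaged into 1 unit (adjusted p = 0.0213 and 0.0232). Of the Wnt targets, 4 of 13 were lower and 1 higher at dpc16, where 6.15% of all genes were called lower and 5.65% higher. Lect2, a secreted liver protein gene, was lower (-2.72 ± 0.21) and Slc1a2 was higher (1.10 ± 0.28), while Axin2 changed by -0.65 ± 0.31 and was not called (adjusted p = 0.199). With the zones averaged, Lect2 was called (adjusted p = 0.00221), and Slc1a2 (0.0961) and the lower cytochrome P450 genes Cyp2e1 (0.0946) and Cyp1a2 (0.116) were not. Fzd4 (-0.72 ± 0.19) and Porcn (-0.63 ± 0.16), which encodes the enzyme that acylates Wnt proteins, were lower and Fzd5 (0.54 ± 0.16) was higher, and these 3 calls were lost with the zones averaged. The same held for 2 genes of the beta-catenin core, Tcf7l1 (0.78 ± 0.24) and Bcl9l (-0.85 ± 0.25).

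Among endothelial genes outside the 10, Vwf, the gene of von Willebrand factor, rose at dpc16 from 2.61 ± 2.01 to 28.5 ± 26.6 FPKM (2.55 ± 0.48, limma adjusted p = 9.94e-04). Lower at dpc16 were Bmp6 (-0.83 ± 0.18) and Dnase1l3 (-0.61 ± 0.18) of the 12 sinusoidal genes, Sox18 (-0.66 ± 0.19) of the 14 pan-endothelial genes, Cldn5 (-0.73 ± 0.20) and Dll4 (-0.59 ± 0.19). With the zones averaged into 1 unit none of these 6 was called, the adjusted p of Vwf being 0.0967, and Dll4 also lost its call without the 6 libraries (adjusted p = 0.0837). Of 10 Kupffer cell genes, 7 were lower at dpc16 (median -0.76), where 6.15% of all genes were called lower. The 4 with the largest changes, Clec4f (adjusted p = 0.0535), Csf1r (0.0906), Cd5l (0.116) and C1qa (0.170), lost their calls with the zones averaged. Of 10 hepatic stellate genes 1 was lower, Lrat, which encodes the enzyme that stores vitamin A as esters, with 2.04 FPKM at dpc16 and 8.13 in NP mice (-1.62 ± 0.20, adjusted p = 9.95e-06, and 0.00920 with the zones averaged). The part of both cell types in the endothelial changes was not tested. Vegfc, a growth factor gene, was higher (0.74 ± 0.22) and lost its call with the zones averaged (adjusted p = 0.222) and without the 6 libraries (adjusted p = 0.116).

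The genes whose log2 levels over the 27 libraries were most like those of each gene are given as a description, since the points share libraries and zones. For Wnt2 they were Slc1a2 (r = 0.91), Oat and Gulo, for Wnt9b Slc22a3 (r = 0.94), Slc13a3 and Glul, and for Rspo3 Tbx3 (r = 0.91), Ahr and Cyp2c39. For Kit they were Bcl6b (r = 0.79), Lhpp and Hhip, and for Pecam1 the endothelial genes Tie1 (r = 0.86), Adgrf5 and Ptprb. Kdr and Oit3 were each among the 3 genes most like the other (r = 0.87). Cdh5 was most like Mrc1 and Hagh, Clec4g most like Fcgr2b, Mrc1 and Gimap6, and Efnb2 most like Tbc1d1 (r = 0.92), Plec and Igf2bp2.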

How the data were processed

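RNA of 27 microdissected samples (9 groups of 3) was sequenced after depletion of ribosomal RNA. Per the labels, the authors trimmed reads with cutadapt, aligned them to mm10 with HISAT2 2.1.0 and computed FPKM with Cuffdiff (Cufflinks 2.2.1); the deposited FPKM cover protein-coding genes, and no counts were used. Groups and replicate numbers came from sample titles, in which the meaning of the replicate number is left unexplained. If these were not separate mice, p-values measure only the spread between these libraries.

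The 12952 genes that reached 1 FPKM in 3 or more libraries were tested with limma 3.58.1 in R 4.3.3 (trend, robust) on log2(FPKM + 1), with 9 group means in 1 fit, two-sided, with Benjamini-Hochberg adjustment over all genes tested in each comparison. The study's own test works on reads. Depth was estimated from steps of low FPKM in genes with 1 transcript, assuming a mean fragment of 200 bases, and 93.4% to 98.5% of low values lay within 0.1 of a whole read. Gene positions came from GENCODE on GRCm38 (21806 of 21823 identifiers found). The test was also run on simulated data with independent noise. That run does not cover libraries that deviate together, the libraries with Y-linked FPKM or genes near 0.

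Named were all 10 genes, in each other list up to 4 genes with the largest called change between zones 1 and 3 or between dpc16 and NP, 7 fixed partner genes (Lgr4, Lgr5, Kitl, Vegfa, Ephb4, Wls, Axin2), and the 3 genes most correlated with each. For Cdh5, 2 of these 3 are reported here. The 10 genes and the lists were chosen with earlier results of these data known. At dpc16, deviations from group means correlated above 0.1 in all 9 pairs of zones that share a number (0.26 to 0.86). At dpc8 5 of 9 and in NP mice 4 of 9 did. The reported fit paired no libraries, and the replicate block and the averaged zones used the numbers of all 3 stages. Alternatives were another pseudocount (0.1), other filters, quantile normalization, array weights, fewer groups, a replicate block, zones averaged, covariates and left-out libraries.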

Additional observations from a re-analysis of the deposited data

How the results depend on the processing

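Over 1027 values of the 10 genes under alternatives, 909 kept direction and side of the threshold, 57 lost a call, 25 gained one and 36 changed sign, and over the alternatives of 56 named values of other genes 1397 kept both, 193 lost a call and 0 changed sign. Counts of called genes given here include Wnt9b, which the results count apart. Those that moved by over 1.5 times were, for zone 1 against zone 2 (1 as reported), 2 with a pseudocount of 0.1, array weights or either covariate, and 0 with only the groups compared. For dpc16 against NP (1) they were 0 with quantile normalization, with only the groups compared, with the 6 Y-linked libraries removed or with the endothelial covariate, and 2 with the connective tissue covariate. For zone 1 against zone 3 they were 5 at dpc8 with array weights (3 with all choices as reported, Wnt9b included), and 0 with only the groups compared and 1 with those libraries removed in NP mice (likewise 3). For dpc16 against dpc8 (0) they were 2 with array weights and 1 without those libraries or with the connective tissue covariate, which also gave 1 for dpc16 against NP in zone 2 (0). With 1 library left out, Wnt2 and Rspo3 were called in every fit of zone 1 against zone 3 at each stage, and the counts ranged from 2 to 2 (NP), 2 to 3 (dpc8 and dpc16) and 4 to 5 (mean over stages) for zone 1 against zone 3, from 0 to 2 for zone 1 against zone 2, from 3 to 3 for zone 2 against zone 3, from 0 to 1 for dpc16 against NP over zones and in zone 2, and were 0 in the other comparisons. Smaller moves between zones 1 and 3 included those of Wnt9b, lost with quantile normalization in NP mice (adjusted p = 0.137) and at dpc16 (0.171), with only the groups compared at dpc8 (0.141) and dpc16 (0.356), and with the endothelial covariate at dpc8 (0.0543), and of Efnb2, gained at dpc8 with array weights (0.0304) and at dpc16 with the connective tissue covariate (0.0411). Wnt9b was not tested under the stricter filter. The causes were not tested.

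The replicate block on the number gave 2 genes between zones 1 and 2, adding Kit (adjusted p = 4.84e-04), called Kit in NP and dpc8 mice and Efnb2 over stages (adjusted p = 0.0157), and called 1049 genes of all between zones 1 and 3 instead of 724. With the pairing taken as a mean over zones, 0 of the 10 genes and 399 instead of 1529 of all genes were called at dpc16, and 4 of 23 other named genes. The block also called Kit at dpc16 and changed no other call of the 10 genes. Among other named genes it lost the calls of Eng between zones 1 and 3 (adjusted p = 0.0587) and Dll4 at dpc16 (0.0520). Over stages, Efnb2 between zones 1 and 3 was also called with a pseudocount of 0.1 (adjusted p = 0.0358) and array weights (0.00101).

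Some estimates that were not called changed sign, from reported values at dpc16 of -0.32 (Kdr), 0.31 (Efnb2), -0.29 (Oit3), -0.28 (Pecam1), -0.16 (Kit), -0.05 (Clec4g) and -0.03 (Wnt9b), and of -0.37 for Kit between zones 2 and 3. At dpc16, Wnt9b gave 0.043 with quantile normalization, 0.069 with array weights, 0.032 once the Y-linked libraries were dropped and 0.075 with the endothelial covariate. Clec4g gave 0.11, 0.16 and 0.34 and Efnb2 -0.15, -0.055 and -0.60 with the last 3 of these. Kit gave 0.14 with array weights and 0.28 with the endothelial covariate, under which Pecam1 gave 0.16, Kdr 0.0085 and Oit3 0.094. Between zones 1 and 3, Clec4g gave -0.0033 with array weights and -0.0090 without those libraries, Cdh5 0.014 and 0.16 with the connective tissue and endothelial covariates, Pecam1 0.18 with the latter, and Kit 0.014 with it between zones 2 and 3. With 1 library left out, the ranges were -0.11 to 0.038 (Wnt9b), -0.16 to 0.12 (Clec4g) and -0.044 to 0.52 (Efnb2) at dpc16, and -0.090 to 0.10 (Clec4g) and -0.28 to 0.031 (Pecam1) between zones 1 and 3. With 3 libraries a group and few reads of Wnt9b in zone 1, small changes could not be resolved.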
